A study of Rattus norvegicus with 15 samples.

Results

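The 39 genes described here encode the DNA replication machinery and the S-phase functions that accompany it: origin licensing, the replicative helicase, polymerases and primase, the sliding clamp and its loader, nucleotide supply, G1/S regulators and chromatin assembly. They were taken from a list of gene symbols, which was chosen with earlier results of these data known. A gene was followed through a probe set that carried its symbol alone and whose log2 intensity was at least 4 on at least 3 of the 15 arrays, with 1 probe set per gene, the one with the highest mean. By this rule 36 of the 39 genes were found, out of 9002 named genes on the arrays, and no listed gene with such a probe set fell under the low-value filter. Rrm2, Cdc6 and Gins2 had no probe set carrying their symbol alone and are not analysed here.

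RNA came from rat spermatogonial stem cells, the testis germ cells that both renew themselves and give rise to sperm, expanded for 1 month in serum-free medium with GDNF. GDNF is the growth factor on which their self-renewal in culture depends. There were 5 groups of 3 arrays, each array from an independent culture: control cultures kept in GDNF, cultures deprived of GDNF for 18 h, and cultures deprived for 18 h and then given GDNF back for 2 h, 4 h or 8 h. All groups had the same month of culture with GDNF behind them, and the sources used here do not give rat strain, age or the number of animals. No group was left without GDNF beyond 18 h, so in the return groups the effect of GDNF and of the further hours since its removal cannot be told apart. In such bulk RNA, fewer cells of a type and less RNA per cell cannot be told apart either.

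Replication is prepared in G1, when the origin recognition complex (ORC) together with CDC6 and CDT1 loads the ring of MCM proteins onto origins, while geminin holds CDT1 back. In S phase the loaded MCM ring is turned into a working helicase by CDC45 and the GINS complex, and RPA coats the unwound strands. DNA polymerase alpha with primase then lays down primers, and polymerases delta and epsilon extend them on the PCNA clamp, which is loaded by replication factor C (RFC). Transcription of many of these genes is driven by the E2F factors at the G1/S boundary, so their mRNA level is often read as a sign of cycling cells, in spermatogonia as elsewhere.

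Intensities are GCRMA values on a linear scale, and all changes below are log2 differences between group means from limma, with its standard error (SE) and a p-value adjusted over all 15856 tested probe sets within a comparison. A gene was called when that p was under 0.05. Replicate 1 of the control, withdrawal and 4 h groups had the lowest scores within their groups on the leading component of variation among replicates (-0.323, -0.487 and -0.394), which held 25.2% of that variation. On the other side control replicate 2 scored 0.435 and withdrawal replicate 3 scored 0.405. Replicate 1 was the lowest of the 2 h group as well, at -0.106, while at 8 h replicate 3 was, at -0.061. Replicate 1 of control, withdrawal and 4 h are called the 3 low-scoring arrays, and counts without them are given below. Of 16 germ and stem cell markers 9 were measured, among them Ret, Etv5, Epcam and Sall4, whereas Gfra1, the GDNF co-receptor, and Lin28a were below the filter, with highest intensities of 12.7 and 17.9. Of 18 mesenchymal or feeder markers 12 were measured, and their summed intensity ranged from 5431 to 7105 in control, 3941 to 6481 in withdrawal, 3652 to 4101 at 2 h, 4015 to 5370 at 4 h and 5834 to 7020 at 8 h. Their mean log2 level, from 7.93 ± 0.13 at 2 h to 8.63 ± 0.14 at 8 h (SD), had an adjusted p = 0.0736 in a permutation test over the 5 groups (n = 3 each). The same test gave adjusted p = 0.000775 for 5 measured Sertoli markers and 0.00237 for 6 differentiating or meiotic germ cell markers (permutation tests, n = 3 each). Of the Sertoli markers Dhh averaged 15.6 to 16.8 outside control, at the filter, and 64.3 in control, whereas the abundant Clu averaged 3143 to 3591 outside control and 3051 in control. The mean log2 level of the 5 Sertoli markers, which the test compared, was 6.91 ± 0.07 after withdrawal and 7.33 ± 0.03 in control (SD). Their summed intensity went the other way, at 3795 to 4077 after withdrawal and 3436 to 3633 in control. Dhh had by far the largest difference between these 2 groups. Wt1 and Rhox5 were slightly lower after withdrawal too, whereas Cldn11 and Clu were higher. The p is therefore not a result about the 5 Sertoli markers as a set. The differentiating or meiotic markers averaged 10.42 ± 0.02 to 10.55 ± 0.03 on the log2 scale outside control and 10.26 ± 0.04 in control (SD). The 9 germ and stem cell markers had an adjusted p = 0.00015, with means of 10.18 ± 0.10 after withdrawal and 10.72 ± 0.08 in control. Among them Bcl6b averaged 164 after withdrawal and 1588 in control, and Epcam, Itga6, Ret, Etv5 and Id4 were lower after withdrawal too. Epcam averaged 7587 after withdrawal and 10994 in control, and Itga6 averaged 8310 after withdrawal and 11053 in control. The other way, Sall4 averaged 644 after withdrawal and 489.8 in control, and Cdh1 averaged 526 after withdrawal and 381 in control. Uchl1 averaged 5409 after withdrawal and 5403 in control. Bcl6b had by far the largest of these differences, and the list was chosen with earlier results of these data known. Its p is therefore no measure of germ cell content. Of the other measured Sertoli markers Cldn11 ranged from 244 to 332, Rhox5 from 85.4 to 112 and Wt1 from 15.2 to 43.0. The Sertoli genes Gata4 and Amh stayed at or under 3.85 and 5.42 on the linear scale. Of the immune or blood markers 0 of 9 passed the filter. The 1 measured Leydig or peritubular marker, Acta2, had an adjusted p = 0.48 in the same permutation test. The part of these other cells in the results below was not tested.

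On average the replication genes were lower after GDNF withdrawal than with GDNF, and lower again once GDNF was back. Their mean log2 deviation from each gene's own average was 0.107 ± 0.014 in control, 0.050 ± 0.021 after withdrawal, -0.024 ± 0.026 at 2 h, -0.072 ± 0.018 at 4 h and -0.061 ± 0.012 at 8 h of return (SD, n = 3 each). The 3 control arrays lay above the other 12, and the 3 withdrawal arrays lay above all 9 return arrays. In 22 of the 36 genes the control group had the highest mean, and in 10 the withdrawal group; the lowest mean lay at 2 h in 8, at 4 h in 14 and at 8 h in 10 genes. No gene had its highest mean at 4 h or 8 h.

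**Figure D1:**
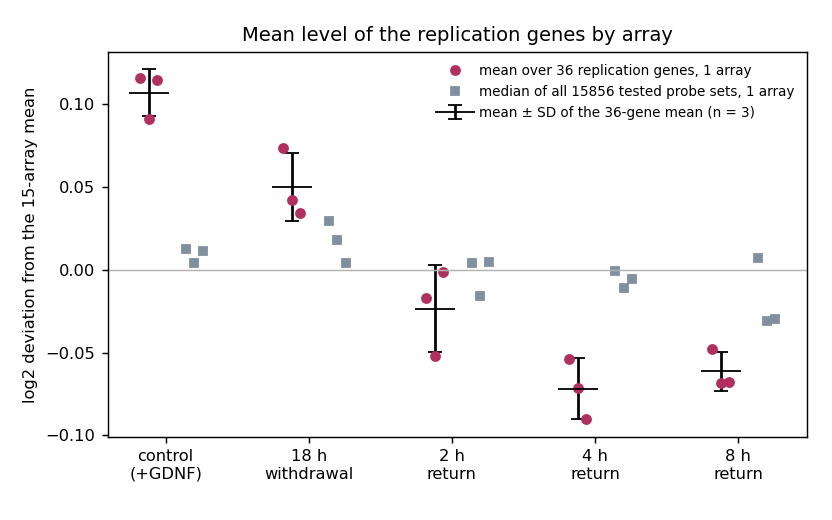
Mean log2 deviation of the 36 replication genes on each array (circles; bars give mean ± SD, n = 3) and the median of all 15856 tested probe sets on the same array (squares), both as deviation from the average of the 15 arrays. The replication genes lie at 0.107 in control and at -0.061 after 8 h of return, while the median of all probe sets varies less.

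The changes were small, as they were for most probe sets. In each comparison at most 1 of the 36 genes reached 1.5-fold, where 2.53% to 5.69% of all tested probe sets did. The median absolute log2 change at 8 h against control was 0.163 for the 36 genes and 0.103 for all probe sets. In the other comparisons it was lower for the 36 genes than for all, with 0.113 and 0.122 after withdrawal. The fold between the highest and the lowest of the 5 group means ranged from 1.06 for Mcm7 to 1.81 for Tk1, with a median of 1.18, and 34 of 36 genes stayed under 1.5-fold. The replicates were close as well: the residual SD on the log2 scale had a median of 0.064 over these genes and 0.102 over all tested probe sets. In limma's F test over the 5 groups 30 of the 36 genes passed, where 49.6% of all tested probe sets did. How far the lower residual SD of the 36 genes raised their share was not tested. The 6 genes that did not pass the F test were Mcm7, Mcm10, Pcna, Gmnn, Orc6 and Pole.

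**Figure D2:**
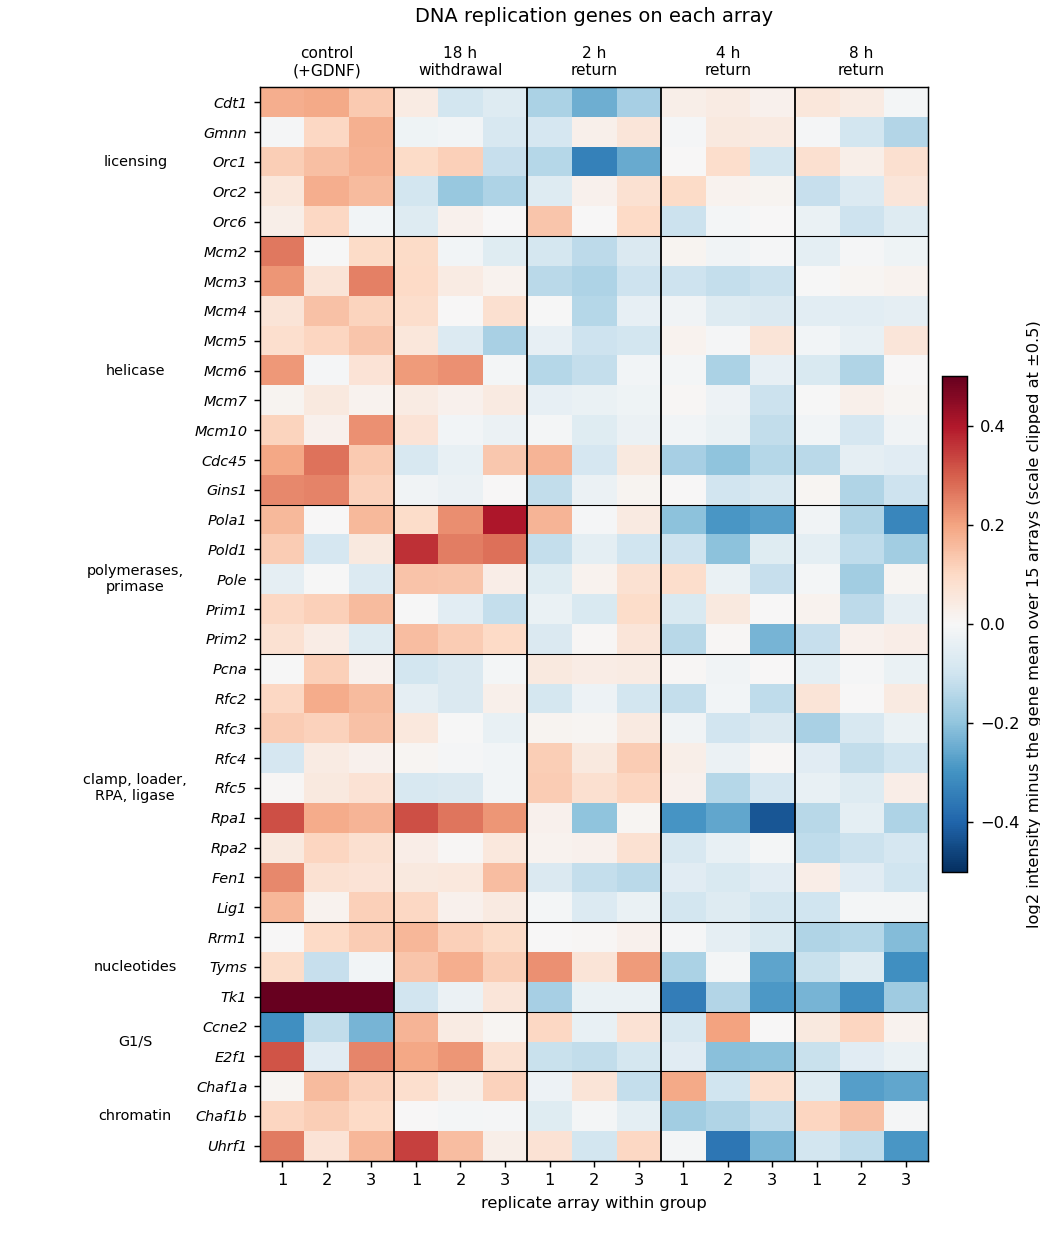
Log2 intensity of each replication gene on each of the 15 arrays, minus that gene's mean over the arrays, grouped by role (rows) and by group in the order of the experiment (columns); red is above and blue below the gene's mean, with the scale clipped at 0.5. The first 3 columns (control) are mostly red and the last 6 (4 h and 8 h of return) mostly blue, with Pold1, Pola1 and Rpa1 still high after withdrawal.

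The promoters of these genes carry E2F-type letters more often than those of other genes. RefSeq promoter windows of rat assembly GRCr8, from 250 bases before to 50 after the start, were at hand for 33 of the 39 genes; Mcm4, Rrm2, Cdc6, Orc1, Ccne2 and E2f1 had none. On either strand TTTGGCGC, TTTCCCGC, TTTGCCGC or TTTCGCGC was present in 14 of 33 windows (42.4%), in 2.1% of all 33469 windows of the same length and in 4.4% of the windows of 8506 tested genes. The 14 were Mcm2, Mcm3, Mcm5, Mcm6, Mcm7, Cdt1, Gins1, Gmnn, Pola1, Pole, Rfc3, Rpa2, Lig1 and Tyms. In Mcm10, Cdc45, Orc2, Pold1, Fen1 and Uhrf1, all without an E2F-type match, the whole window lay inside the RefSeq span of the gene. Letters before the outermost start of these genes were therefore not searched. CCAAT, the NF-Y-type letters, was found in 21 of 33 windows (63.6%), in 37.5% of all windows and in 38.3% of those of tested genes. TTTGAA or TTCGAA, letters of the cell cycle genes homology region (CHR), was found in 4 of 33 (12.1%), in 19.7% of all windows and in 13.3% of those of tested genes. In 1 gene an E2F-type match overlapped one of the other 2 kinds. These matches are letters in a window, not sites shown to be bound.

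The windows below belong to the 6 genes called lower at 8 h of return than in control under every alternative setting tried, and they show genes with and without a match. Capitals mark E2F-type matches, and each window is written 5′ to 3′ along the gene. They lie at chr3:160184670-160184969 (plus strand, Gins1), chr12:5836318-5836617 (plus, Rfc3), chr5:150260522-150260821 (plus, Rpa2), chr1:166235654-166235953 (plus, Rrm1), chr10:60698230-60698529 (minus, Rpa1) and chr10:103544728-103545027 (minus, Tk1).
Gins1: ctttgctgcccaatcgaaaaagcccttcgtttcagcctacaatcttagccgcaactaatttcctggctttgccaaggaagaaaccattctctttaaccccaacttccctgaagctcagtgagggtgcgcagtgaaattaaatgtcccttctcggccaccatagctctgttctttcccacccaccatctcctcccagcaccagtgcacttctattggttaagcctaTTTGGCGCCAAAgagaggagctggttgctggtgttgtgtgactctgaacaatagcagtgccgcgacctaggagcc
Rfc3: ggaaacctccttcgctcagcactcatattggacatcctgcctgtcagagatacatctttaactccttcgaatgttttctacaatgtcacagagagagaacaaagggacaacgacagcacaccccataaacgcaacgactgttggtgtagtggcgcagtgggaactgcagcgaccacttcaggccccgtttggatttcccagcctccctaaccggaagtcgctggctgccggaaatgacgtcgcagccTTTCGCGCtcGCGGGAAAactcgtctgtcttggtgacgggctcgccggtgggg
Rpa2: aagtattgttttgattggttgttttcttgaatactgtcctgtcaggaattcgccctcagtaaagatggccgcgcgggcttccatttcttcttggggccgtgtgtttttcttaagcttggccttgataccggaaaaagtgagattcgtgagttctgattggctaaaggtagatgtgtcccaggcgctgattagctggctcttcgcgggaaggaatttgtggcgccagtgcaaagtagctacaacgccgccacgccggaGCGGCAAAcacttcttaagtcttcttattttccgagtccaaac
Rrm1: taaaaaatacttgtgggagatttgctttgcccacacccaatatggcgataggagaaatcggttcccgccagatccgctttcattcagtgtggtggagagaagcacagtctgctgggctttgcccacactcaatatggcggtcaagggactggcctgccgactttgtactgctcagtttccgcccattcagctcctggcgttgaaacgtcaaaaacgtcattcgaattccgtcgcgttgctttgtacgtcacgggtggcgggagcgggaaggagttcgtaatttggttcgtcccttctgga
Rpa1: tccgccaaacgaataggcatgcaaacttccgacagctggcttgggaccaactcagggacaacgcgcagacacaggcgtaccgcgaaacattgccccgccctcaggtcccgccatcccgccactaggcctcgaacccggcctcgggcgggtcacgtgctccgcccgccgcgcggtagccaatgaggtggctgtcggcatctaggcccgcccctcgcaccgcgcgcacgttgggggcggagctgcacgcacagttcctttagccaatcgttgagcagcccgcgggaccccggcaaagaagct
Tk1: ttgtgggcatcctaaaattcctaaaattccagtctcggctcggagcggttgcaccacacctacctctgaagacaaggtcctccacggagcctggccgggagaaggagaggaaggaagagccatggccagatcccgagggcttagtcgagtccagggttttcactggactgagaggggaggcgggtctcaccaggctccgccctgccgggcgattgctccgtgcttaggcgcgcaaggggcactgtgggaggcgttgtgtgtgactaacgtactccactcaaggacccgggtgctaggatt
Gins1, Rfc3 and Rpa2 held a match, which in Gins1 was read on both strands of 1 run of letters, while Rrm1, Rpa1 and Tk1 held none. Tk1, with the largest fall of all, held no CCAAT either. Of the 12 genes with a window that were called lower at 8 h of return than in control, 5 held an E2F-type match, and of the other 20 tested genes with a window 9 did.

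Origin licensing was led by Cdt1, the factor that brings the MCM ring to origins. Cdt1 intensity was 1944, 1954 and 1878 in control, 1764, 1609 and 1639.8 after withdrawal, 1535, 1446 and 1528 at 2 h, 1747, 1766 and 1740.0 at 4 h and 1784, 1766 and 1705 at 8 h of return. The withdrawal arrays lay under all control arrays, the 2 h arrays were the lowest of the 15, and those at 4 h and 8 h lay between the 2 h and the control arrays without overlap. Cdt1 was lower after withdrawal than in control, with a log2 change of -0.21 (SE 0.04, adjusted p = 0.00242). It was lower at 2 h than after withdrawal, with a change of -0.15 (SE 0.04, adjusted p = 0.014), and higher at 8 h than at 2 h, with 0.22 (SE 0.04, adjusted p = 0.0012). At 8 h it was still lower than in control, with -0.14 (SE 0.04, adjusted p = 0.0417).

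Orc1, a subunit of ORC, showed its low point at 2 h too. Its intensity was 388, 338 and 359.7 at 2 h, against 458, 465 and 395 after withdrawal, and the 3 arrays at 2 h were the lowest of the 15. Orc1 fell at 2 h relative to withdrawal (log2 change -0.28, SE 0.07, adjusted p = 0.00984) and was higher at 8 h than at 2 h (0.31, SE 0.07, adjusted p = 0.00503). Orc2, another ORC subunit, was lower after withdrawal, at 827 ± 28.6, than in control, at 1002 ± 46.5 (log2 change -0.28, SE 0.06, adjusted p = 0.00258), and higher at 4 h than after withdrawal (0.19, SE 0.06, adjusted p = 0.0199). Orc6, a further subunit, was called in 1 of the 6 comparisons, lower at 8 h than at 2 h (-0.15, SE 0.05, adjusted p = 0.0346). Gmnn, which encodes geminin, was called in none of the 6 comparisons, with a difference of -0.13 after withdrawal and of -0.17 at 8 h against control.

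Helicase genes were called mostly lower and by small amounts. Mcm3, a subunit of the ring, had intensities of 879.9, 789 and 898 in control, 809, 776 and 763 after withdrawal, 688, 677 and 702 at 2 h, 702, 694 and 699 at 4 h and 753, 759 and 764 at 8 h of return. The arrays at 2 h and 4 h lay under all others, and those at 8 h lay above them and under every control array. Mcm3 fell at 2 h (log2 change -0.18, SE 0.05, adjusted p = 0.0125) and 4 h (-0.16, SE 0.05, adjusted p = 0.019) relative to withdrawal, was higher at 8 h than at 2 h (0.14, SE 0.05, adjusted p = 0.0455) and was lower at 8 h than in control (-0.17, SE 0.05, adjusted p = 0.0323). Mcm2, another subunit, had intensities of 3477, 2892 and 3096 in control, 3101, 2869 and 2778 after withdrawal, 2729, 2646 and 2759.8 at 2 h, 2929, 2866 and 2887 at 4 h and 2801, 2883 and 2854 at 8 h of return. One control array, replicate 1, was above the rest, and the control and withdrawal arrays overlapped. Mcm2 passed the F test (adjusted p = 0.0469) and was called in none of the 6 comparisons, the largest of those differences being -0.14 at 8 h against control (adjusted p = 0.107). Its lowest group, 2 h, was not tested against control.

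Among the other subunits, Mcm5 was lower after withdrawal than in control (log2 change -0.17, SE 0.05, adjusted p = 0.0358). Mcm6 was lower than after withdrawal at 2 h (-0.24, SE 0.07, adjusted p = 0.0224), 4 h (-0.21, SE 0.07, adjusted p = 0.0308) and 8 h (-0.22, SE 0.07, adjusted p = 0.033). Mcm4 was lower at 2 h than after withdrawal (-0.12, SE 0.04, adjusted p = 0.0396) and lower at 8 h than in control (-0.16, SE 0.04, adjusted p = 0.0156). Mcm7 was not called, its largest difference being -0.08, at 4 h against withdrawal. Gins1, of the GINS complex, had 408, 404 and 413 after withdrawal and 415, 372 and 384 at 8 h, against 487, 489.8 and 446 in control. Neither group overlapped control, and Gins1 was lower in both, with changes of -0.22 (SE 0.06, adjusted p = 0.018) after withdrawal and -0.28 (SE 0.06, adjusted p = 0.0063) at 8 h. Cdc45, the partner of GINS, was lower at 8 h than in control (-0.28, SE 0.07, adjusted p = 0.0192), and after withdrawal its change of -0.19 was not past the threshold.

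Second probe sets add a limit for these genes. Mcm10, which encodes an initiation factor, was not called through its brightest probe set, but through a second it was lower after withdrawal than in control (-0.23, adjusted p = 0.039), higher at 2 h than after withdrawal (0.29, adjusted p = 0.00862) and lower at 8 h than at 2 h (-0.29, adjusted p = 0.00887). A further probe set of Cdc45 was lower at 8 h than at 2 h (-0.43, adjusted p = 0.00692), where the brightest gave -0.12, not past the threshold. At 8 h against control the same further probe set of Cdc45 was lower too (-0.54, adjusted p = 0.00345), and another gave -0.29 with an adjusted p of 0.115. For Orc6 at 8 h against 2 h, one further probe set was called as well (-0.29, adjusted p = 0.00967) and the other was not (-0.12, adjusted p = 0.158).

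Pold1, Pola1, Pole and Prim2 had their highest group mean after withdrawal, and of these Pold1 was called higher than in control. Pold1, the catalytic subunit of polymerase delta, had intensities of 1467, 1269.5 and 1389.6 in control, 1732, 1604 and 1628 after withdrawal, 1236, 1298 and 1254 at 2 h, 1249.9, 1166 and 1289.8 at 4 h and 1298, 1232 and 1190.2 at 8 h of return. All 3 withdrawal arrays were above the other 12. Pold1 was higher after withdrawal than in control (log2 change 0.27, SE 0.06, adjusted p = 0.00347) and fell with return, with changes relative to withdrawal of -0.39 (SE 0.06, adjusted p = 0.000208) at 2 h, -0.42 (SE 0.06, adjusted p = 5.55e-05) at 4 h and -0.42 (SE 0.06, adjusted p = 8.98e-05) at 8 h. Against control the 8 h change of -0.15 was not past the threshold. Pola1, the catalytic subunit of polymerase alpha, had intensities of 286, 256 and 286 in control, 272, 299.8 and 338 after withdrawal, 287, 254 and 263 at 2 h, 221, 208 and 211 at 4 h and 252, 230.2 and 204 at 8 h of return. The 6 arrays at 4 h and 8 h lay under every control, withdrawal and 2 h array, by a narrow margin for 8 h replicate 1. Pola1 fell relative to withdrawal at 4 h (-0.50, SE 0.09, adjusted p = 0.000787) and 8 h (-0.41, SE 0.09, adjusted p = 0.00454), and its changes of -0.17 at 2 h and -0.27 at 8 h against control were not past the threshold.

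The primase genes were called in different comparisons. Prim1, the catalytic subunit, was lower both after withdrawal and at 8 h than in control, at 4817 ± 197 and 4842 ± 252 against 5478 ± 105. Its log2 changes were -0.19 (SE 0.05, adjusted p = 0.0165) after withdrawal and -0.18 (SE 0.05, adjusted p = 0.0309) at 8 h. Prim2, the large subunit, was lower at 4 h than after withdrawal (-0.25, SE 0.06, adjusted p = 0.00661) and was called in none of the other 5 comparisons. Pole, the catalytic subunit of polymerase epsilon, was called in none of the 6 comparisons; its largest differences were -0.16 at 8 h against withdrawal and 0.15 after withdrawal against control.

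Rpa1, the large subunit of the single-strand binding protein RPA, had the lowest adjusted p of the 36 genes at 4 h of return. Its intensities were 2253, 2052 and 2029.8 in control, 2258, 2174 and 2105 after withdrawal, 1832, 1571 and 1817 at 2 h, 1471, 1506 and 1342 at 4 h and 1638, 1746 and 1621 at 8 h of return. The 6 control and withdrawal arrays lay above all 9 return arrays, and the 4 h arrays were the lowest 3 of the 15. Rpa1 fell relative to withdrawal, with changes of -0.33 (SE 0.06, adjusted p = 0.0019) at 2 h, -0.60 (SE 0.06, adjusted p = 5.69e-06) at 4 h and -0.39 (SE 0.06, adjusted p = 0.000466) at 8 h, whereas the difference between withdrawal and control was 0.05 and not past the threshold. At 8 h Rpa1 was lower than in control (-0.34, SE 0.06, adjusted p = 0.00288). Rpa2, the second RPA subunit, was at 1979.9 ± 29.4 at 8 h, against 2186 ± 50.1 at 2 h, 2174 ± 37 after withdrawal and 2249 ± 43.7 in control. It was lower at 8 h than in each of these groups, with changes of -0.14 (SE 0.03, adjusted p = 0.00635) against 2 h, -0.14 (SE 0.03, adjusted p = 0.00915) against withdrawal and -0.18 (SE 0.03, adjusted p = 0.00266) against control.

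Pcna, the sliding clamp and a common marker of cycling cells, showed only small changes. Its intensities were 7932, 8612 and 8061 in control, 7447, 7556 and 7888 after withdrawal, 8204, 8137 and 8154 at 2 h, 7962, 7838 and 7952 at 4 h and 7671, 7909 and 7754 at 8 h of return. The 3 withdrawal arrays lay under the 3 control arrays, and the 3 at 2 h lay above the withdrawal arrays, by margins that were small beside the level. Pcna was called lower after withdrawal than in control (log2 change -0.10, SE 0.03, adjusted p = 0.0385) and higher at 2 h than after withdrawal (0.10, SE 0.03, adjusted p = 0.0421), and it did not pass the F test (adjusted p = 0.0597).

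Of the clamp loader, Rfc2 had intensities of 1155, 1221 and 1201 in control, 1042, 1023 and 1095 after withdrawal, 1012, 1056 and 1008 at 2 h, 990.2, 1064 and 986 at 4 h and 1123, 1077 and 1109 at 8 h of return. Every control array lay above every other array. Rfc2 was lower after withdrawal than in control (-0.18, SE 0.04, adjusted p = 0.00983), and was called in none of the other 5 comparisons, with a difference of -0.11 at 8 h against control. The 2 h and 4 h groups were not tested against control. Rfc3 was lower after withdrawal (-0.13, SE 0.04, adjusted p = 0.0463) and at 8 h (-0.22, SE 0.04, adjusted p = 0.00305) than in control. Rfc4 and Rfc5 were highest at 2 h and lower at 8 h than at 2 h, with changes of -0.19 (SE 0.04, adjusted p = 0.00212) for Rfc4 and -0.13 (SE 0.04, adjusted p = 0.0458) for Rfc5. Rfc5 was also higher at 2 h than after withdrawal (0.16, SE 0.04, adjusted p = 0.0161). A second probe set of Rfc5 gave 0.02, adjusted p = 0.781 and -0.12, adjusted p = 0.0888 in these comparisons of 2 h with withdrawal and 8 h with 2 h, so neither call rests on both.

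Of the genes that finish Okazaki fragments, Fen1, the flap nuclease, was lower than after withdrawal at 2 h (-0.19, SE 0.05, adjusted p = 0.0154) and 4 h (-0.15, SE 0.05, adjusted p = 0.0448). Lig1, DNA ligase I, was lower at 4 h than after withdrawal (-0.14, SE 0.05, adjusted p = 0.0344). A second Lig1 probe set, close in brightness, moved further: it was higher after withdrawal than in control (0.36, adjusted p = 0.00338) and lower than after withdrawal at 2 h (-0.45, adjusted p = 0.000627), 4 h (-0.40, adjusted p = 0.000914) and 8 h (-0.39, adjusted p = 0.00152). The brightest probe set gave -0.04 after withdrawal, -0.09 at 2 h and -0.10 at 8 h, none past the threshold.

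The largest change of all 36 genes was that of Tk1, thymidine kinase 1, which salvages thymidine for DNA synthesis. Its intensities were 319, 314 and 362 in control, 204, 214 and 228 after withdrawal, 195, 214 and 214 at 2 h, 172, 198 and 179 at 4 h and 186, 176 and 193 at 8 h of return. All 3 control arrays lay far above the other 12, and no return array came near them. Tk1 was lower after withdrawal than in control (log2 change -0.62, SE 0.08, adjusted p = 5.38e-05, 1.54-fold) and lower at 8 h of return than in control (-0.84, SE 0.08, adjusted p = 7.5e-06, 1.79-fold). Relative to withdrawal it was lower at 4 h (-0.24, SE 0.08, adjusted p = 0.0326), while the difference of -0.22 at 8 h had an adjusted p = 0.0539. Of its other probe sets, one at a mean log2 intensity of 6.79 was lower after withdrawal and at 8 h than in control as well, and gave -0.07, adjusted p = 0.726 at 4 h against withdrawal. The dimmest, at a mean log2 of 4.69, was flat, with -0.01, adjusted p = 0.978 after withdrawal and 0.01, adjusted p = 0.969 at 8 h against control.

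Rrm1, the large subunit of ribonucleotide reductase, fell later. Its intensities were 1616, 1729 and 1767 in control, 1813, 1756 and 1727 after withdrawal, 1616, 1621 and 1642 at 2 h, 1611, 1568 and 1531 at 4 h and 1456, 1464 and 1389 at 8 h of return. The 3 arrays at 8 h lay under all others, while control and withdrawal overlapped. Rrm1 fell relative to withdrawal at 2 h (-0.12, SE 0.04, adjusted p = 0.0455), 4 h (-0.17, SE 0.04, adjusted p = 0.00575) and 8 h (-0.30, SE 0.04, adjusted p = 9.64e-05), and at 8 h it was lower than in control (-0.25, SE 0.04, adjusted p = 0.00115) and lower than at 2 h (-0.18, SE 0.04, adjusted p = 0.00477). Tyms, thymidylate synthase, was at 326 ± 28.8 at 4 h and 322 ± 27.9 at 8 h, against 405 ± 24.9 at 2 h and 398 ± 8.53 after withdrawal. It fell relative to withdrawal at 4 h (-0.29, SE 0.08, adjusted p = 0.0134) and 8 h (-0.31, SE 0.08, adjusted p = 0.0118) and was lower at 8 h than at 2 h (-0.33, SE 0.08, adjusted p = 0.00777), and at 8 h against control its change was -0.15, not past the threshold.

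**Figure D3:**
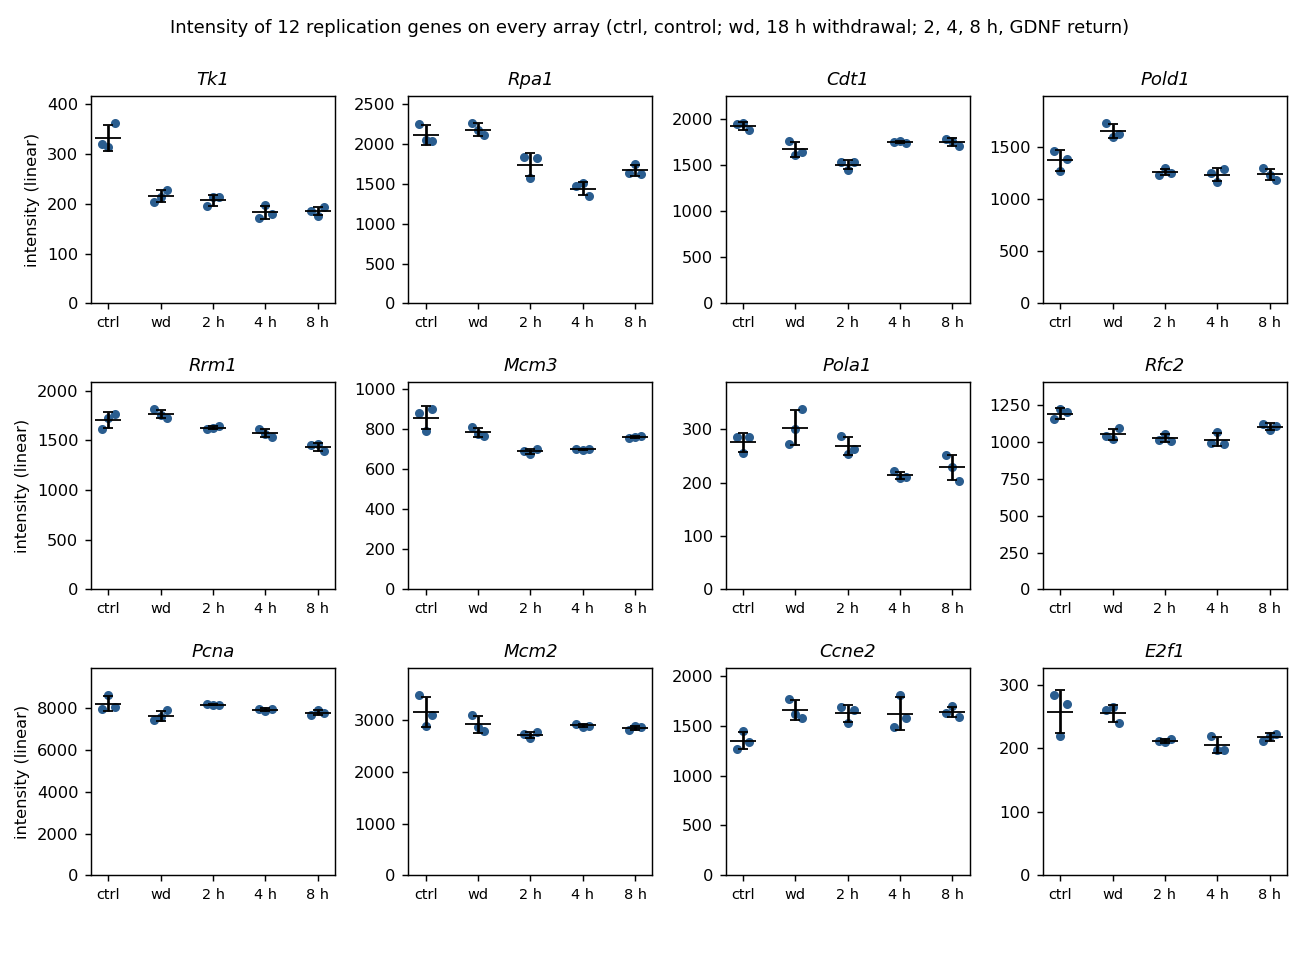
Intensity on the linear scale of 12 replication genes on every array (points; bars give mean ± SD, n = 3), with each axis starting at 0. In the Tk1 panel the control arrays, at 314 to 362, lie far above the rest; Rpa1 and Pold1 are lower on all 9 return arrays than on the withdrawal arrays, and Pcna and Mcm2 vary little.

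The 2 measured G1/S regulators had different patterns. Ccne2, cyclin E2, which activates CDK2 at the start of S phase, had intensities of 1270.0, 1441 and 1338 in control, 1765, 1616 and 1580.2 after withdrawal, 1686, 1529.9 and 1652 at 2 h, 1485, 1804 and 1573 at 4 h and 1624, 1692 and 1588 at 8 h of return. All control arrays lay under all other arrays. Ccne2 was higher after withdrawal than in control (log2 change 0.29, SE 0.07, adjusted p = 0.00733) and still higher at 8 h (0.28, SE 0.07, adjusted p = 0.0165), the only gene called higher than control in both comparisons. Its second probe set, near the filter at a mean log2 of 4.02, gave -0.17, adjusted p = 0.476 and -0.14, adjusted p = 0.621 there, and with the mean of both probe sets the calls were lost (log2 changes 0.06 and 0.07, adjusted p = 0.709 and 0.714). E2f1, an activator of S-phase genes, had intensities of 283, 219 and 269.7 in control, 260.3, 265 and 240.0 after withdrawal, 211, 209 and 214 at 2 h, 219, 197 and 197 at 4 h and 211, 219 and 222 at 8 h of return. The withdrawal arrays lay above all return arrays, and 1 control array, replicate 2, lay among the return arrays. E2f1 was lower than after withdrawal at 2 h (-0.27, SE 0.09, adjusted p = 0.0309) and 4 h (-0.32, SE 0.09, adjusted p = 0.011), and its changes of -0.23 at 8 h against withdrawal and -0.24 against control were not past the threshold.

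Of the chromatin genes, Uhrf1, which brings the maintenance DNA methyltransferase to new DNA, was lower than after withdrawal at 4 h (-0.37, SE 0.09, adjusted p = 0.00748) and 8 h (-0.35, SE 0.09, adjusted p = 0.0147), and lower at 8 h than in control (-0.33, SE 0.09, adjusted p = 0.0309). Its intensities were 1164, 1136 and 1012 at 8 h and 1232, 965 and 1057 at 4 h, against 1572, 1379 and 1264 after withdrawal and 1484, 1299 and 1390.2 in control, so the arrays at 4 h and 8 h lay under those of both other groups. Chaf1a, the large subunit of chromatin assembly factor 1 (CAF-1), was lower at 8 h than after withdrawal (-0.28, SE 0.08, adjusted p = 0.0148) and than in control (-0.29, SE 0.08, adjusted p = 0.0198). Chaf1b, the middle subunit, was called in none of the 6 comparisons and passed the F test (adjusted p = 0.0134). Its mean was 171 ± 3.19 at 4 h and 204 ± 1.81 in control, a pair that was not tested on its own.

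After withdrawal, 2 of the 36 genes were higher and 9 were lower than in control, where 11.4% and 9.67% of all tested probe sets were (21.1% in either direction). Called lower were Tk1, Orc2, Gins1, Cdt1, Prim1, Rfc2, Mcm5, Rfc3 and Pcna, and called higher were Ccne2 and Pold1. By role, lower were 2 of 5 licensing genes, 2 of 9 helicase genes, 1 of 5 polymerase and primase genes, 3 of 9 clamp, loader, RPA and fragment maturation genes and 1 of 3 nucleotide genes, and 0 of 3 chromatin genes were called. The median log2 change of the 36 was -0.05, and that of all tested probe sets 0.01. Groups did not overlap in 18 of the 36 genes, against 34.3% of all probe sets. The largest changes not past the threshold were those of Cdc45 (-0.19), Tyms (0.16) and Pole (0.15). The calls for Tk1, Cdt1, Orc2, Pold1 and Rfc2 held under all 26 alternative settings, 15 of which left out 1 array each. Without withdrawal replicate 2 the count of lower genes was 5, and without the 3 low-scoring arrays 6 were lower and 1 higher. Mcm5 lost its call when control replicate 1, 2 or 3 or withdrawal replicate 2 or 3 was dropped (adjusted p = 0.0532 to 0.145). Pcna lost its call when control replicate 2, withdrawal replicate 1 or 2 or 2 h replicate 1 was dropped (adjusted p = 0.0502 to 0.167). Rfc3 lost its call when control replicate 1, 2 or 3, withdrawal replicate 2 or 3, 2 h replicate 1, 2 or 3, 4 h replicate 3 or 8 h replicate 2 was dropped (adjusted p = 0.0569 to 0.136). Gins1 lost its call when control replicate 1 or 2 or withdrawal replicate 2 was dropped (adjusted p = 0.0568 to 0.0683). Prim1 lost its call when control replicate 3 or withdrawal replicate 3 was dropped (adjusted p = 0.0568 to 0.0669).

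At 2 h of return, 2 genes were higher and 10 lower than after withdrawal, where 11.9% and 14.2% of all tested probe sets were (26.1% in either direction). Lower were Pold1, Rpa1, Orc1, E2f1, Mcm6, Fen1, Mcm3, Cdt1, Mcm4 and Rrm1, and higher were Rfc5 and Pcna. The median was -0.06 for the 36 genes and -0.02 for all probe sets, and groups did not overlap in 18 of 36 genes, against 42.7% of all. Changes of Pola1 (-0.17), Orc2 (0.15) and Uhrf1 (-0.15) were the largest not past the threshold. Only the calls for Pold1 and Rpa1 held under all 26 alternatives. The count of lower genes was 5 without withdrawal replicate 1 or without 2 h replicate 2, 6 without withdrawal replicate 2 or 2 h replicate 3, and 4 without the 3 low-scoring arrays. The count of higher genes was 4 without control replicate 1, 0 without withdrawal replicate 2, and 1 without 2 h replicate 1 or 3, 4 h replicate 1 or 3, or 8 h replicate 1 or 2. Mcm4 lost its call when withdrawal replicate 1 or 3, 2 h replicate 2 or 3 or 8 h replicate 1, 2 or 3 was dropped (adjusted p = 0.0506 to 0.18). Mcm6 lost its call when withdrawal replicate 1 or 2 or 2 h replicate 1 or 2 was dropped (adjusted p = 0.069 to 0.0997). Pcna lost its call when withdrawal replicate 1 or 2, 2 h replicate 1, 2 or 3, 4 h replicate 1 or 3 or 8 h replicate 1, 2 or 3 was dropped (adjusted p = 0.0502 to 0.134). Rrm1 lost its call when withdrawal replicate 1, 2 or 3, 2 h replicate 1, 2 or 3, 4 h replicate 3 or 8 h replicate 1 or 2 was dropped (adjusted p = 0.0504 to 0.137). E2f1 lost its call when withdrawal replicate 1 or 2 or 2 h replicate 1, 2 or 3 was dropped (adjusted p = 0.0635 to 0.104). Cdt1 lost its call when withdrawal replicate 1 or 2 h replicate 2 was dropped (adjusted p = 0.0618 to 0.0654). Rfc5 lost its call when withdrawal replicate 2 or 2 h replicate 1 was dropped (adjusted p = 0.0571 to 0.0577). Orc1 lost its call when withdrawal replicate 2 was dropped (adjusted p = 0.0514). Fen1 lost its call when withdrawal replicate 3 or 2 h replicate 3 was dropped (adjusted p = 0.0544 to 0.0645).

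At 4 h of return, 1 gene was higher and 13 were lower than after withdrawal, where 14.6% and 16% of all tested probe sets were (30.6% in either direction). Lower were Rpa1, Pola1, Pold1, Uhrf1, E2f1, Tyms, Prim2, Tk1, Mcm6, Rrm1, Mcm3, Fen1 and Lig1, and Orc2 was higher. The median was -0.08 for the 36 genes and -0.01 for all probe sets, and groups did not overlap in 19 of 36, against 41.3% of all. Changes of Cdc45 (-0.17), Chaf1b (-0.14) and Pole (-0.13) were the largest not past the threshold. The calls for Rrm1, Pola1, Pold1, Rpa1, E2f1 and Uhrf1 held under all 26 alternatives. The count of lower genes was 8 without 4 h replicate 3 and 7 without the 3 low-scoring arrays, and the count of higher genes was 0 without those 3 arrays, without withdrawal replicate 2 or 3, or without 4 h replicate 1. Mcm6 lost its call when withdrawal replicate 1 or 2 or 4 h replicate 2 or 3 was dropped (adjusted p = 0.0508 to 0.128). Fen1 lost its call when withdrawal replicate 1, 2 or 3, 2 h replicate 1, 2 or 3, 4 h replicate 1, 2 or 3 or 8 h replicate 2 was dropped (adjusted p = 0.0515 to 0.165). Tk1 lost its call when withdrawal replicate 2 or 3 or 4 h replicate 1 or 3 was dropped (adjusted p = 0.0713 to 0.117). Lig1 lost its call when withdrawal replicate 1 or 3 or 4 h replicate 1, 2 or 3 was dropped (adjusted p = 0.0535 to 0.115). Mcm3 lost its call when withdrawal replicate 1 was dropped (adjusted p = 0.069). Orc2 lost its call when withdrawal replicate 2 or 3 or 4 h replicate 1 was dropped (adjusted p = 0.0529 to 0.0752). Tyms lost its call when 4 h replicate 3 was dropped (adjusted p = 0.0634).

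At 8 h of return, 0 genes were higher and 9 lower than after withdrawal, where 9.62% and 15.4% of all tested probe sets were; in both directions, the share called was 25% in the 36 genes and 25% in all probe sets. Lower were Pold1, Pola1, Rpa1, Uhrf1, Tyms, Rrm1, Chaf1a, Mcm6 and Rpa2. The median was -0.09 for the 36 genes and -0.02 for all, and groups did not overlap in 16 of 36, against 40.9% of all. Changes of E2f1 (-0.23), Tk1 (-0.22) and Pole (-0.16) were the largest not past the threshold. The calls for Rrm1, Pola1, Pold1 and Rpa1 held under all 26 alternatives, and 8 genes were lower without the 3 low-scoring arrays. Mcm6 lost its call when withdrawal replicate 1 or 2 or 8 h replicate 1 or 2 was dropped (adjusted p = 0.0764 to 0.132). Uhrf1 lost its call when withdrawal replicate 1 or 8 h replicate 3 was dropped (adjusted p = 0.0708 to 0.0731). Chaf1a lost its call when 8 h replicate 2 or 3 was dropped (adjusted p = 0.0604 to 0.0656). Tyms lost its call when 8 h replicate 3 was dropped (adjusted p = 0.0626).

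Of the 6 comparisons, that of 8 h of return with control had the lowest median for the replication genes. Here 1 gene, Ccne2, was higher and 13 were lower, where 4.83% and 7.49% of all tested probe sets were (12.3% in either direction). The change was below 0 in 35 of the 36 genes. Lower were Tk1, Rpa1, Uhrf1, Chaf1a, Gins1, Cdc45, Rrm1, Rfc3, Rpa2, Prim1, Mcm3, Mcm4 and Cdt1. By role they were 1 of 5 licensing genes, 4 of 9 helicase genes, 1 of 5 polymerase and primase genes, 3 of 9 clamp, loader, RPA and fragment maturation genes, 2 of 3 nucleotide genes and 2 of 3 chromatin genes. The median was -0.16 for the 36 genes and -0.02 for all probe sets, and groups did not overlap in 24 of 36, against 30.2% of all. Changes of Pola1 (-0.27), E2f1 (-0.24) and Orc2 (-0.17) were the largest not past the threshold. The calls for Tk1, Rrm1, Rpa1, Rpa2, Rfc3 and Gins1 held under all 26 alternatives. The count of lower genes was 8 without control replicate 3 or without 8 h replicate 2, and 12 without the 3 low-scoring arrays. The count of higher genes was 0 without control replicate 1 or 3 or 8 h replicate 2. Cdt1 lost its call when control replicate 1, 2 or 3, 2 h replicate 1 or 3, 4 h replicate 3 or 8 h replicate 1, 2 or 3 was dropped (adjusted p = 0.0505 to 0.146). Prim1 lost its call when control replicate 1, 2 or 3 or 8 h replicate 2 or 3 was dropped (adjusted p = 0.0551 to 0.135). Chaf1a lost its call when control replicate 2 or 3 or 8 h replicate 2 or 3 was dropped (adjusted p = 0.061 to 0.0809). Uhrf1 lost its call when control replicate 1 or 3 or 8 h replicate 2 or 3 was dropped (adjusted p = 0.059 to 0.127). Mcm3 lost its call when control replicate 1 or 3 or 8 h replicate 1, 2 or 3 was dropped (adjusted p = 0.0726 to 0.13). Mcm4 lost its call when control replicate 2 or 8 h replicate 1 was dropped (adjusted p = 0.0502 to 0.0561). Ccne2 lost its call when control replicate 1 or 3 or 8 h replicate 2 was dropped (adjusted p = 0.0506 to 0.0693). Cdc45 lost its call when control replicate 2 or 8 h replicate 1 was dropped (adjusted p = 0.0689 to 0.0753).

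Between 8 h and 2 h of return, 3 genes were higher and 6 lower, where 11.8% and 14.4% of all tested probe sets were (26.2% in either direction), so the shares were near the background. Higher at 8 h were Orc1, Cdt1 and Mcm3, and lower were Tyms, Rfc4, Rrm1, Orc6, Rpa2 and Rfc5. The median was -0.04 for the 36 genes and -0.02 for all, and it was -0.01 without 2 h replicate 3 and -0.02 without 8 h replicate 2. Groups did not overlap in 18 of 36 genes, against 45.6% of all. Changes of Pola1 (-0.23), Uhrf1 (-0.20) and Chaf1a (-0.17) were the largest not past the threshold. The calls for Cdt1, Orc1, Rrm1, Rfc4, Rpa2 and Tyms held under all 26 alternatives. Mcm3 lost its call when withdrawal replicate 2, 2 h replicate 1, 2 or 3, 4 h replicate 1 or 3 or 8 h replicate 1, 2 or 3 was dropped (adjusted p = 0.0523 to 0.128). Orc6 lost its call when 2 h replicate 1 or 3 or 8 h replicate 2 or 3 was dropped (adjusted p = 0.0747 to 0.14). Rfc5 lost its call when control replicate 2 or 3, withdrawal replicate 1 or 2, 2 h replicate 1, 2 or 3, 4 h replicate 3 or 8 h replicate 1 or 2 was dropped (adjusted p = 0.0507 to 0.159). The 6 comparisons share arrays: the withdrawal arrays enter 4 of them, the control arrays 2 and the 8 h arrays 3, so their calls are not independent of each other.

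**Figure D4:**
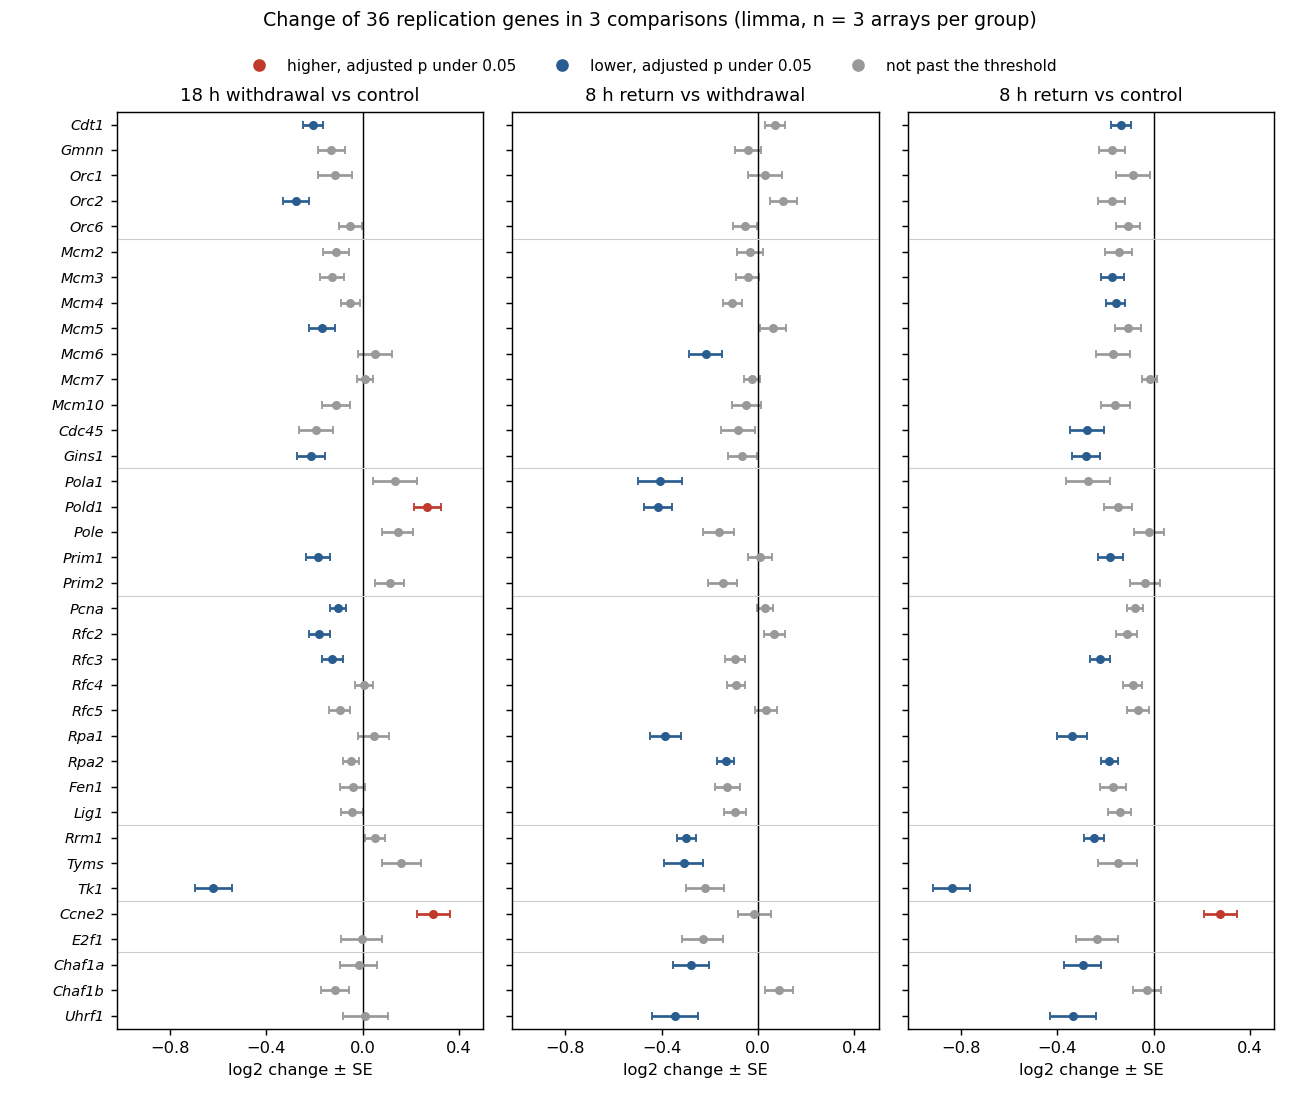
Log2 change ± SE of each of the 36 replication genes after 18 h of withdrawal and after 8 h of return (limma, n = 3 arrays per group), with red and blue for genes called higher and lower. In the right panel, 8 h of return against control, the points lie left of 0 for every gene except Ccne2, and Tk1 is furthest out at -0.84.

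Related genes outside the 36 give the setting. Of 26 other measured fork and origin genes 4 were higher and 5 lower after withdrawal than in control (15.4% and 19.2%, against 11.4% and 9.67% of all probe sets), with Pole2, a polymerase epsilon subunit, at -0.49 (SE 0.08, adjusted p = 0.000669) and Rfc1, the large clamp loader subunit, at 0.28 (SE 0.05, adjusted p = 0.00108). At 8 h, 1 was higher and 5 were lower than in control (4.83% and 7.49% of all probe sets were), with Pclaf, a PCNA-binding factor, at -0.70 (SE 0.06, adjusted p = 4.48e-06). Of 19 other nucleotide genes 2 were higher and 3 lower after withdrawal, near the background of 11.4% and 9.67% of all probe sets. Among them the purine enzyme Gart was at 0.43 (SE 0.07, adjusted p = 0.00028). At 8 h 0 of the 19 were higher and 2 lower than in control, where 4.83% and 7.49% of all probe sets were. These shares were near the background too. Of 10 other chromatin replication genes 3 were higher and 0 lower after withdrawal (30% and 0%, against 11.4% and 9.67% of all probe sets). At 8 h 0 were higher and 7 lower than after withdrawal (9.62% and 15.4% of all probe sets were), with the histone chaperone Nasp at -0.26 (SE 0.03, adjusted p = 6.35e-05).

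Single regulators of G1 had larger changes than any of the 36 genes. Of 34 measured E2F, RB and G1/S control genes 3 were higher and 7 lower after withdrawal than in control (8.82% and 20.6%, against 11.4% and 9.67% of all probe sets). The CDK inhibitor Cdkn1c had 220.3 ± 11.2 after withdrawal and 112 ± 7.35 in control, a change of 0.97 (SE 0.08, adjusted p = 8.17e-07), and cyclin D2 (Ccnd2) had 406 ± 68.6 after withdrawal and 789.8 ± 74.6 in control, a change of -0.97 (SE 0.11, adjusted p = 1.96e-05). At 8 h both had turned back relative to withdrawal, Cdkn1c by -0.96 (SE 0.08, adjusted p = 9.39e-07) and Ccnd2 by 1.11 (SE 0.11, adjusted p = 4.39e-06). At 8 h against control 0 of the 34 were higher and 9 lower (0% and 26.5%, against 4.83% and 7.49% of all probe sets). Dtl, part of the ligase that removes CDT1, had the lowest adjusted p (-0.30, SE 0.05, adjusted p = 0.000916), and the kinase genes Cdk2 (-0.37, SE 0.09, adjusted p = 0.0117) and Cdk4 (-0.21, SE 0.04, adjusted p = 0.00236) were also lower.

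Of 15 checkpoint and damage response genes 6 were higher and 1 lower after withdrawal than in control (40.0% and 6.67%, against 11.4% and 9.67% of all probe sets). Cyclin G1, Ccng1, a target of p53, was at 0.87 (SE 0.04, adjusted p = 2.91e-09). At 8 h 0 were higher and 5 lower than after withdrawal (0% and 33.3%, against 9.62% and 15.4% of all probe sets). Sesn2, a stress-inducible gene, was at -0.73 (SE 0.07, adjusted p = 4.73e-06). Of 27 measured mitosis genes, which act after replication in the cell cycle, 7 were higher and 3 lower after withdrawal than in control. These were 25.9% and 11.1%, against 11.4% and 9.67% of all probe sets. The median was 0.10 for the mitosis genes and -0.05 for the replication genes. At 8 h 0 mitosis genes were higher and 18 lower than after withdrawal (0% and 66.7%, against 9.62% and 15.4% of all probe sets). Their median was -0.26, with the spindle gene Nusap1 at -0.61 (SE 0.06, adjusted p = 1.75e-06). Against control 0 were higher and 11 lower at 8 h (0% and 40.7%, against 4.83% and 7.49% of all probe sets), with a median of -0.15. The difference between the 2 lists was not tested.

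**Figure D5:**
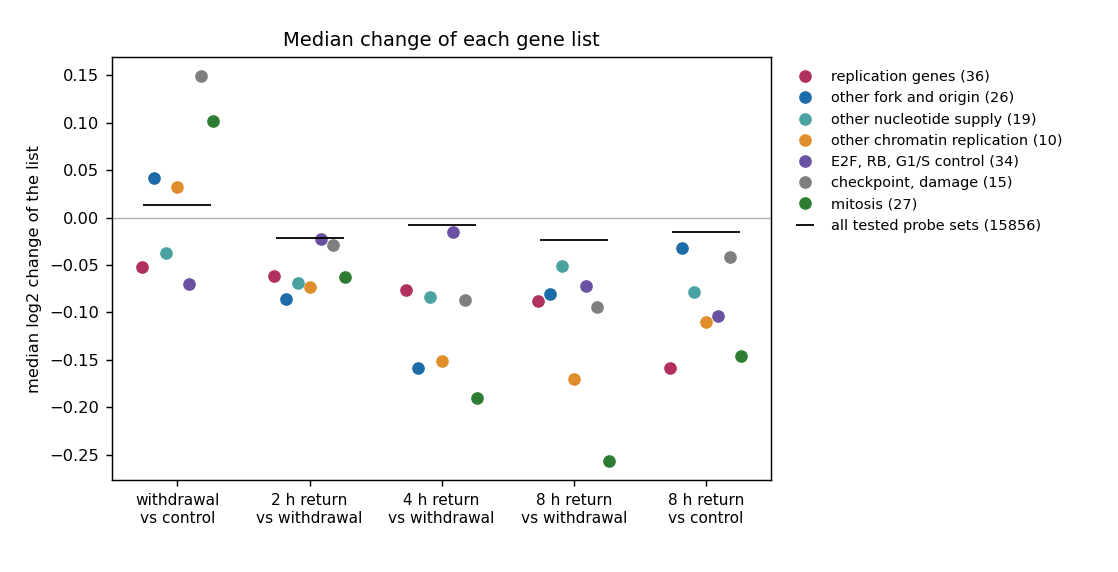
Median log2 change of each gene list (coloured points, number of measured genes in the legend) and of all 15856 tested probe sets (black bars) in 5 comparisons. After withdrawal the mitosis genes lie at 0.10 and the replication genes at -0.05; at 8 h against withdrawal the mitosis genes lie at -0.26 and the replication genes at -0.09, and at 8 h against control both lists lie near -0.15.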

How the data were processed

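The deposited values are probe set intensities from rat expression arrays, 1 array per sample, which per the submitters' processing notes were made with GCRMA in Partek 6.3; that they are on a linear scale was read from the values, and the sources used here give no further settings. The log2 of these intensities was fitted over all 5 groups with limma 3.58.1 in R 4.3.3 (lmFit, eBayes with an intensity trend, no block), and p-values were adjusted by Benjamini-Hochberg over the 15856 of 31099 probe sets whose log2 intensity was at least 4 on at least 3 arrays, control probe sets left out. Signal limits precision: 50.1% to 50.4% of probe sets per array reached an intensity of 16. The number of arrays, 3 a group, limits it further. Probe sets were named from the platform's annotation where it gave 1 symbol (20832 probe sets; 436 had several and 9831 none), and 20764 of these symbols matched RefSeq. Per-array values were given for genes fixed in a list, all called genes were named, the 3 largest uncalled differences were added, and other lists were shown through up to 4 called genes with the lowest p. The members, lists and tests were chosen with earlier results of these data known. Marker lists were compared over groups by permutation tests of the mean log2 level (100000 resamples, 5 lists). Tested on simulated data of 15856 probe sets with 200 changed, the fit of withdrawal against control recovered 20% of log2 changes of 0.25, 68% of those of 0.5, 96% of those of 1 and 100% of those of 2. Tables and figures were made with Python 3.11.15, numpy 2.4.6, pandas 2.3.3 and matplotlib 3.10.9. Replicates are separate cultures per the labels. Alternatives were other filters, offsets, scalings, variance models, probe set summaries, a replicate block and leaving out arrays.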

Additional observations from a re-analysis of the deposited data

How the results depend on the processing

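Of the 87 gene differences followed in the 6 comparisons, none reversed under the 26 alternatives: 1978 outcomes were as reported, 30 gained and 254 lost a call. The counts of higher and lower genes and the medians moved as follows. Withdrawal against control gave 5 lower with only the 2 groups fitted, and 1 higher and a median of -0.0741 without replicate 1 of control, withdrawal and 4 h. At 2 h against withdrawal, higher genes were 1 without the filter, without the intensity trend or with only the 2 groups, and 4 with arrays centred on the median; lower genes were 6 without the filter and 4 without those 3 arrays, and the centred median was -0.0423. At 4 h against withdrawal the centred median was -0.0530, with 0 higher and 7 lower without those 3 arrays. At 8 h against withdrawal the median was -0.0533 centred and -0.0659 after quantile normalization. At 8 h against control it was -0.1313 centred and -0.1322 without those 3 arrays, and 0 were higher with the mean of all probe sets. The cause of these shifts was not tested.

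Leaving out 1 array gave, after withdrawal against control, 2 higher, 5 to 9 lower and medians of -0.0773 to -0.0516. At 2 h against withdrawal it gave 0 to 4 higher, 5 to 10 lower and -0.0724 to -0.0577, and at 4 h 0 to 1 higher, 8 to 14 lower and -0.0963 to -0.0704. At 8 h it gave 0 higher, 6 to 10 lower and -0.0970 to -0.0756 against withdrawal, 0 to 1 higher, 8 to 15 lower and -0.1837 to -0.1322 against control, and 2 to 3 higher, 4 to 7 lower and -0.0563 to -0.0119 against 2 h. The F test called 25 to 29 genes, and 25 without those 3 arrays.

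Groups share replicate numbers in the labels. Correlations of same-numbered arrays ran from -0.138 to 0.389, with 8 of 30 over 0.1. Of these, replicate 1 held 5 of its 10 pairs (median 0.096), replicate 2 held 1 of 10 and replicate 3 held 2 of 10. As 6 of 15 arrays correlated best with their own number, the main fit did not pair the arrays. Whether the replicate 1 arrays share a source of variation was not tested. With the replicate number as a block, the higher and lower counts were 2 and 8 (withdrawal against control), 2 and 9 (2 h), 1 and 13 (4 h), 0 and 10 (8 h, each against withdrawal), 1 and 14 (8 h against control) and 3 and 6 (8 h against 2 h), and the F test called 29. Probe sets near the filter have low signal, which limits Ccne2's and Tk1's dimmest ones.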
